A study of Homo sapiens with 18 samples.

Results

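Tubulin and stathmin genes were described in U87MG cells, an established human glioblastoma line, of which 2 RNA-seq libraries came from cells under normal growth conditions and 2 from cells treated with Erastin (10 μM, 72 h). Without cystine from the antiporter system Xc-, the target of Erastin, cells run short of glutathione, lipid peroxides build up in their membranes and the cells can die by ferroptosis. The comparison asks which transcripts differ after the treatment. The members were the rows of the deposited count table whose Ensembl identifier belongs to the alpha tubulins TUBA1A, TUBA1B and TUBA1C, the beta tubulins TUBB, TUBB2A, TUBB2B, TUBB3, TUBB4B and TUBB6, or stathmin (STMN1), which gave 10 genes of 58302. All libraries are of 1 line, which limits them as a model of glioblastoma, and the labels do not say whether the control cells received the vehicle of Erastin. The other 14 samples of the series, from ChIP-seq and HiChIP, were not analysed here.

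Microtubules are hollow polymers of alpha and beta tubulin heterodimers that carry cargo, shape the cell and form the mitotic spindle. Human cells make several alpha and several beta isotypes from separate genes, and the isotypes differ mostly near the C terminus. Stathmin binds free heterodimers and promotes the shortening of microtubules, and phosphorylation in mitosis releases it from them. Cells also adjust tubulin mRNA to the free heterodimer pool: TTC5 recognises the first residues of a tubulin chain as it leaves the ribosome, and the mRNA is then degraded.

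The first 12 coding bases are shown for the tubulin members because those residues are what TTC5 reads, with codons 2 to 4 in capitals (GENCODE release 44 on hg38, strand of the gene). STMN1, which is not a tubulin, is shown beside them for comparison. The 3 alpha members shared 1 sequence, TUBB shared its sequence with TUBB4B, and TUBB3 shared its sequence with TUBB6.
TUBA1A, TUBA1B and TUBA1C: atgCGTGAGTGC
TUBB and TUBB4B: atgAGGGAAATC
TUBB2A: atgCGCGAGATC
TUBB2B: atgCGTGAGATC
TUBB3 and TUBB6: atgAGGGAGATC
STMN1: atgGCTTCTTCT

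Coding sequences of the isotypes were close to each other, which bears on how reads could be assigned. TUBA1A and TUBA1B were identical at 97.2% of coding positions, TUBA1A and TUBA1C at 95.9%, and TUBB2A and TUBB2B at 98.2%, while the other beta pairs lay between 80.9% and 87.8%. Reads that matched more than 1 place had not been counted. Every stretch of 100 exon bases was therefore looked up in hg38, on chromosomes and alternate scaffolds together. All stretches of STMN1 and TUBB6 occurred at a single place, as did 97.6% of those of TUBB4B, 97.5% of TUBB3, 91.2% of TUBA1C, 88.2% of TUBA1A and 83.3% of TUBA1B. The share was 47.8% for TUBB2B and 37.0% for TUBB2A, and 61.1% of the TUBB2A stretches were also in TUBB2B. For TUBB it was 0.0%, since each of its stretches also lay on alternate scaffolds, of which 7 each held at least 50% of the stretches, and on the chromosomes alone 98.4% of the stretches were at a single place. Whether the authors aligned to a genome with these scaffolds is not given in the sources used here.

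**Figure D1:**
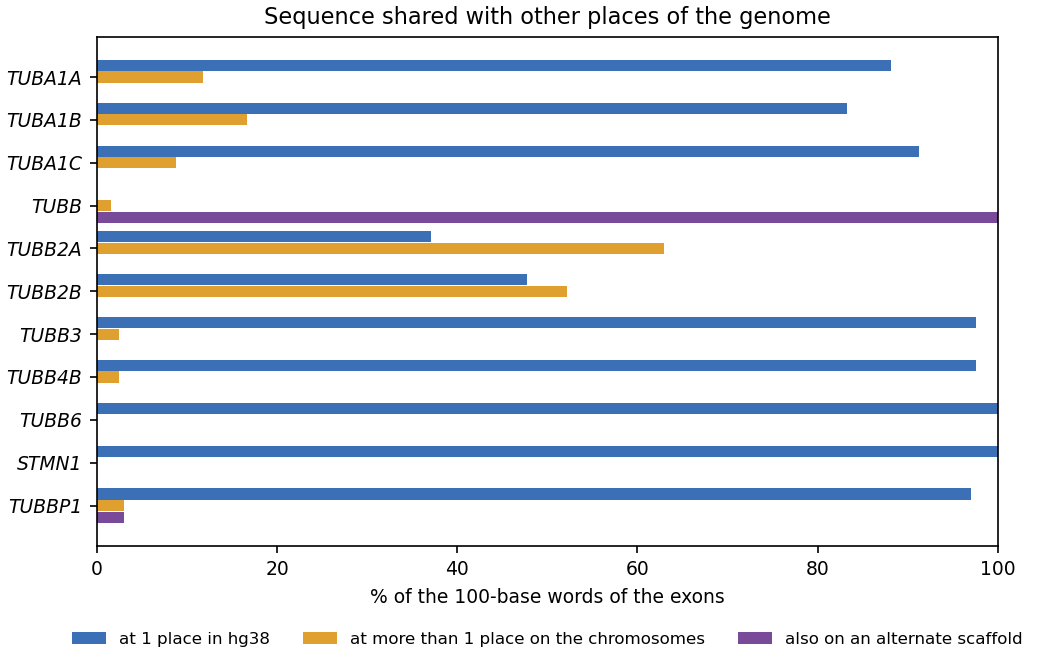
Bars give the percent (x axis) of each gene's 100-base exon stretches, or words, that occur at 1 place in hg38 (blue), at more than 1 place on the chromosomes (orange) or also on an alternate scaffold (purple), for the members and the pseudogene TUBBP1. STMN1 and TUBB6 reach 100% at 1 place, TUBB2A stands at 37.0%, and all TUBB stretches lie also on alternate scaffolds.

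The 4 libraries held 29412656 to 31513519 counted reads, and 3 counts corresponded to 0.0955 to 0.1003 CPM, the usual scale of a gene's counts relative to the size of its library. The 10 genes with the most counts held 7.64% to 8.05% of all counts in control and 5.04% to 5.08% in Erastin libraries. Of the markers of the line, VIM, which encodes vimentin, lay between 1609 and 2547 CPM and CD44, a surface glycoprotein of mesenchymal glioblastoma, between 1055 and 1406 CPM. The glial marker GFAP stayed between 1.32 and 2.58 CPM, and the stem cell factor SOX2 had at most 6 counts in any library. Of the 6 line markers tested, 4 fell, against 23.7% of all tested genes, with CHI3L1, a secreted glycoprotein of mesenchymal glioblastoma, going from 184 and 220 to 42.3 and 42.1 CPM. KRT18 and CDH1, which mark epithelial cells, and CD3E and HBB, which mark blood cells, were at 0 counts in every library, while the epithelial EPCAM had 3 to 14 counts, KRT8 0 to 7 and the leukocyte marker PTPRC 1 count in 1 library.

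Stathmin and most of the abundant tubulins were downregulated after Erastin. By edgeR's quasi-likelihood test with Benjamini-Hochberg adjustment over the 16751 genes tested, 2 of the 10 members, STMN1 and TUBA1A, passed both thresholds (a log2 fold change of −1 or below and an adjusted p under 0.05), against 9.34% of all tested genes. The call of TUBA1A is lost when libraries are scaled by their totals or tested against the threshold itself, as given below. Without the limit on the fold change, STMN1, TUBA1A, TUBA1B, TUBB4B and TUBB6 fell (5 of 10, against 23.7% of tested genes) and TUBB2A rose (1 of 10, against 23.2%). TUBA1C, TUBB, TUBB2B and TUBB3 did not pass. All 10 members passed the filter on low counts, and their median log2 fold change was −0.32, beside −0.0026 over all genes tested. No member passed both thresholds in the higher direction, in which 6.24% of tested genes did, with edgeR or with DESeq2, and at an unadjusted p under 0.05 in edgeR 1 member, TUBB2A, was higher. Both Erastin libraries were below both controls in 7 members (36.9% of tested genes) and above both in 1 member (36.7%). The 7 include TUBB, with 16 and 17 counts in the controls and 7 and 10 after Erastin. It passed the filter on low counts only through the controls, so its lack of overlap carries no weight. With 2 libraries per group the p-values rest on the spread between these samples. In bulk RNA, fewer cells of a type and less RNA per cell cannot be told apart.

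**Figure D2:**
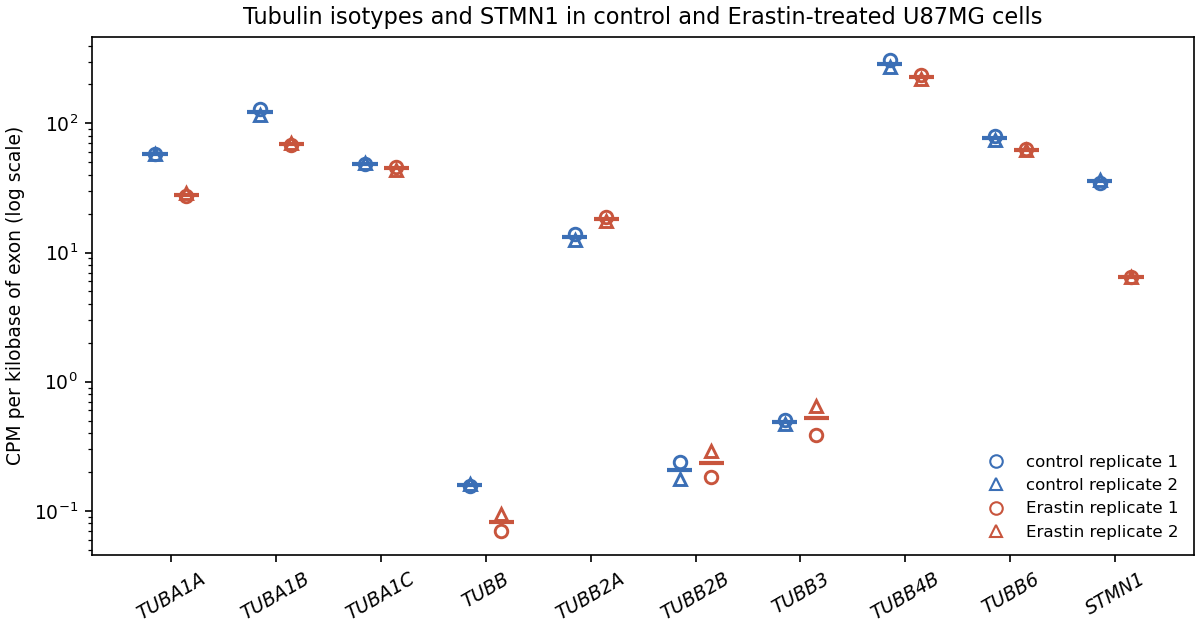
Level of each member in each library (CPM per kilobase of exon, log axis), with control libraries in blue, Erastin libraries in red and a line at each group mean of 2 libraries. The Erastin libraries of STMN1 sit at 6.47 and 6.48 CPM per kilobase, below both controls at 34.7 and 36.7, and TUBB, TUBB2B and TUBB3 lie below 1 in all 4 libraries.

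STMN1 (ENSG00000117632, chr1:25884181-25906991, minus strand) gave the largest fall of the members. It had 217 and 230 CPM in the control libraries and 40.5 and 40.5 CPM in the Erastin libraries. The groups were far apart, and the Erastin libraries differed by less than the controls did. The mean went from 224 ± 8.70 to 40.5 ± 0.0423 CPM (SD, n = 2), an Erastin level that was 0.181 of the control level (log2 fold change −2.46, SE 0.0722, adjusted p = 4.06e-10 by edgeR). Among all tested genes this was the fall of rank 336.

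TUBA1A (ENSG00000167552, chr12:49184796-49189324, minus strand), a main alpha isotype of developing neurons, had 199 and 198 CPM in the control libraries and 93.6 and 98.7 CPM in the Erastin libraries. Its mean went from 199 ± 1.24 to 96.2 ± 3.62 CPM (SD, n = 2), which is −1.05 as a log2 fold change (SE 0.0677, adjusted p = 1.88e-07 by edgeR). The groups did not overlap, but the fold change lay close to the threshold, and with library totals in place of TMM (the edgeR factor for library composition) it was −0.996, which ends the call, as does a test against the threshold itself (adjusted p = 0.682 by glmTreat of edgeR).

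TUBA1B (ENSG00000123416, chr12:49127782-49131397, minus strand), the alpha isotype that most tissues express, had 461 and 413 CPM in the controls and 242 and 252 CPM after Erastin. The mean went from 437 ± 34.1 to 247 ± 7.30 CPM (SD, n = 2), which is −0.82 as a log2 fold change (SE 0.0717, adjusted p = 2.27e-06 by edgeR). Both Erastin libraries were below both controls, and the difference between the means exceeded the spread within either group. The antisense gene TUBA1B-AS1 covers 36.6% of its exon bases and had 2 to 17 counts. The counting did not use strand, and reads on bases of both genes were not counted for either.

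TUBA1C (ENSG00000167553, chr12:49188736-49274603, plus strand), the third alpha isotype of the same cluster, differed much less. Its libraries had 222 and 227 CPM in the controls and 214 and 202 CPM after Erastin, which do not overlap. The log2 fold change of −0.11 did not pass the test (SE 0.0662, adjusted p = 0.190 by edgeR). TUBA1A and TUBA1C lie on opposite strands and share 490 exon bases, 14.3% of TUBA1A and 10.6% of TUBA1C, and reads on those bases were counted for neither gene. Over all overlapping genes, 24.96% of the TUBA1C exon bases are shared.

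TUBB4B (ENSG00000188229, chr9:137241213-137243707, plus strand), the beta isotype found in most cells and in cilia, was the most abundant member. It had 649 and 574 CPM in the controls and 498 and 466 CPM after Erastin. The mean went from 611 ± 53.2 to 482 ± 22.8 CPM (SD, n = 2), and the log2 fold change of −0.34 passed the test (SE 0.0741, adjusted p = 0.00254 by edgeR). The groups did not overlap, though the controls spread more widely than those of any other member on the CPM scale.

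TUBB6 (ENSG00000176014, chr18:12307669-12344320, plus strand), a divergent beta isotype, had 326 and 307 CPM in the controls and 261 and 255 CPM after Erastin. The log2 fold change was −0.30 (SE 0.0651, adjusted p = 0.00276 by edgeR). The fall was close in size to that of TUBB4B, and the libraries again did not overlap. The gene AFG3L2 on the other strand shares 20.3% of the TUBB6 exon bases, which were likewise not counted, and had 1731 to 1964 counts per library.

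TUBB2A (ENSG00000137267, chr6:3153669-3157526, minus strand), a beta isotype known from neurons, went the other way. It had 24.0 and 21.7 CPM in the controls and 32.7 and 30.2 CPM after Erastin. Both Erastin libraries were above both controls, and the mean went from 22.8 ± 1.61 to 31.4 ± 1.76 CPM (SD, n = 2; log2 fold change 0.46, SE 0.110, adjusted p = 0.00460 by edgeR). Its near copy TUBB2B (ENSG00000137285, chr6:3224261-3231730, minus strand) had 16 and 12 counts in the controls and 12 and 20 after Erastin, and the groups overlapped (log2 fold change 0.19, adjusted p = 0.831 by edgeR). Most stretches of both genes occur at more than 1 place, so both rows are uncertain. With the 2 genes merged into 1 row the log2 fold change was 0.46 (adjusted p = 0.00469 by edgeR). Merging does not bring back reads that matched both genes, which were not counted, so it leaves that uncertainty as it was.

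TUBB3 (ENSG00000258947, chr16:89921392-89938761, plus strand), the beta isotype used as a neuronal marker, had a low level, with 68 and 65 counts in the controls and 51 and 91 after Erastin. The Erastin libraries lay on either side of the controls (log2 fold change 0.09, SE 0.340, adjusted p = 0.847 by edgeR). The group sums were 133 counts (95% exact Poisson interval 111 to 158) and 142 counts (120 to 167), and no difference was detectable at this depth. The intervals treat each read as independent, so they cover counting error only and are too narrow where both reads of a pair were counted. A gene on the same strand shares 35.8% of the TUBB3 exon bases, and reads on both were not counted. Of the 10 neuronal markers listed beside it, 5 were tested and 4 fell, against 23.7% of all tested genes. SNAP25, a synaptic fusion protein, went from 34.99 and 39.1 to 3.18 and 4.30 CPM (log2 fold change −3.31, adjusted p = 1.45e-08 by edgeR), and GAP43, a growth cone protein, from 39.5 and 33.0 to 2.44 and 4.39 CPM (−3.40, adjusted p = 1.42e-07 by edgeR). The summed level of the list was 95.9 to 98.2 CPM in the controls and 17.6 to 19.9 CPM after Erastin. The defining markers were scarce, with ELAVL4 at 0 in every library and RBFOX3 at 2 to 9 counts. The part of these genes in the tubulin results was not tested.

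TUBB (ENSG00000196230, chr6:30720201-30725426, plus strand), usually one of the most abundant beta tubulins of dividing cells, was almost without counts. It had 16 and 17 counts in the controls and 7 and 10 after Erastin, which do not overlap (log2 fold change −0.94, SE 0.679, adjusted p = 0.282 by edgeR). The row passed the filter on low counts only through the controls, so this lack of overlap carries no weight. The group sums of 33 counts (95% exact Poisson interval 22.7 to 46.3) and 17 counts (9.90 to 27.2) have overlapping intervals, with the limit given for TUBB3. As all of its stretches also lie on alternate scaffolds, its level is uncertain. Other genes of the tubulin pathway with the same property were also near 0: PFDN6, a prefoldin subunit with 96.8% of its stretches on such scaffolds, had 0 counts in every library, and ATAT1, the alpha tubulin acetyltransferase with 100% on them, had 2 counts in 1 library. These 2 genes were chosen after their values were seen. The part of the scaffolds in the TUBB counts was not tested.

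The pseudogene TUBBP1, a processed copy of TUBB that was chosen after its values were seen, carried far more counts than TUBB. It had 4517 and 4581 counts in the controls and 1749 and 2265 after Erastin, 148 ± 0.183 and 65.3 ± 9.63 CPM (SD, n = 2), and fell with a log2 fold change of −1.18 (SE 0.0922, adjusted p = 9.18e-07 by edgeR). Of its 31-base stretches, 41.0% were also in TUBB and 54.9% occurred at a single place, and of its 100-base stretches 2.97% were also in TUBB and 96.96% occurred at a single place. Whether reads of TUBB mRNA were among its counts was not tested. Of 49 annotated tubulin and stathmin pseudogenes, 4 had at least 10 counts over the 4 libraries.

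**Figure D3:**
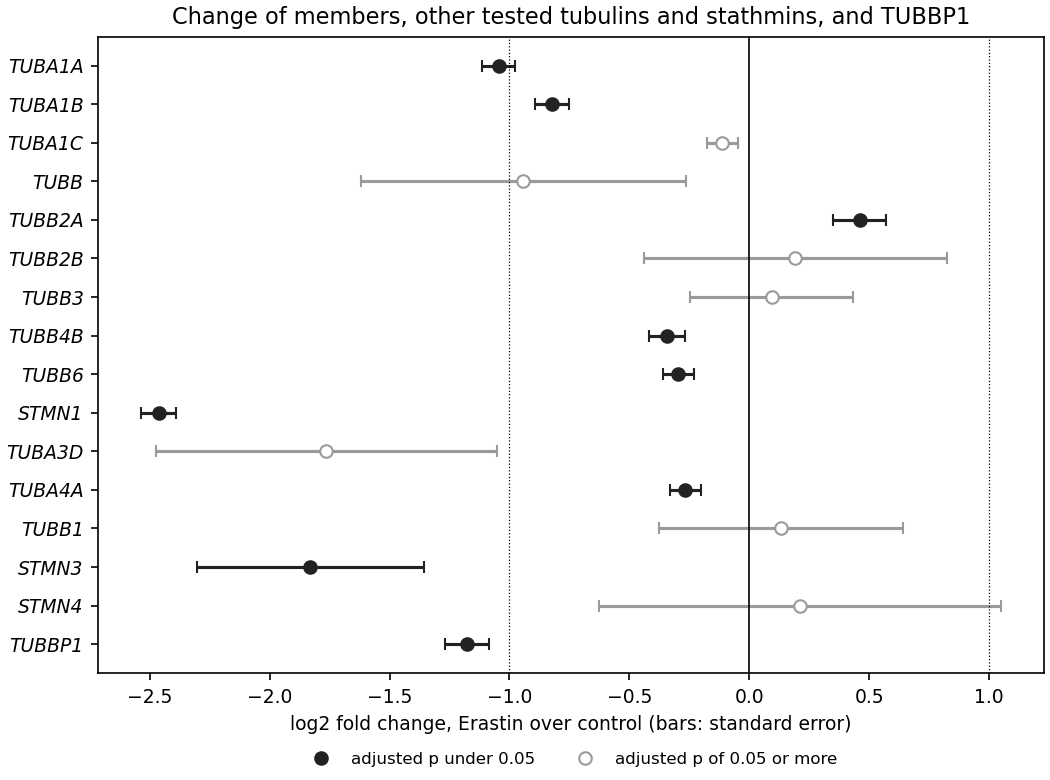
Points are log2 fold changes (x axis, Erastin over control) of the members, the other tested tubulins and stathmins and TUBBP1, with bars of 1 standard error and filled points for an adjusted p under 0.05. STMN1 is at −2.46 and TUBA1A at −1.05, TUBB2A is the member that rose at 0.46, and dotted lines mark the thresholds of −1 and 1.

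Per kilobase of exon, the order of the members changed between the groups. In the controls TUBB4B stood first with 290 ± 25.2 CPM per kilobase (SD, n = 2), before TUBA1B with 122 ± 9.53, TUBB6 with 76.9 ± 3.19, TUBA1A with 58.0 ± 0.361, TUBA1C with 48.5 ± 0.715, STMN1 with 35.7 ± 1.39 and TUBB2A with 13.2 ± 0.932. After Erastin, TUBB4B with 229 ± 10.8, TUBA1B with 69.2 ± 2.04 and TUBB6 with 62.6 ± 0.964 CPM per kilobase kept their order, TUBA1C with 44.9 ± 1.97 stood above TUBA1A with 28.1 ± 1.06, and TUBB2A with 18.2 ± 1.02 stood above STMN1 with 6.47 ± 0.00675. The libraries of neighbours in these orders did not overlap. TUBB3, TUBB2B and TUBB stayed below 1 CPM per kilobase in every library. Of these, TUBB2B at 0.207 ± 0.0441 and TUBB at 0.159 ± 0.00505 in the controls differed by little more than the SD of TUBB2B. These lengths are of all annotated exons of a gene, 6261 bases for STMN1 and 1727 for TUBB2A, not of the transcripts expressed. Comparisons between genes per kilobase, including the sums and shares below, therefore depend on the annotation. The lengths also include bases where reads were not counted because another gene shares them, from 0.0% of TUBB2A to 36.6% of TUBA1B. Per kilobase of unshared bases, a scale added after the values were seen, TUBA1B stood at 193 CPM in the controls and 109 after Erastin, and all 10 members had the same rank in each group as on the full length. Neither length allows for stretches at more than 1 place, whose reads may not have been counted. A single place held 37.0% of the TUBB2A stretches and 100% of those of STMN1, so the order of TUBB2A and STMN1 in the controls is uncertain.

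Per kilobase of the full exon length, the summed alpha members differed more between the groups than the summed beta members as counted. The level of TUBB is uncertain as given above, so the beta sum and the ratio of beta to alpha are uncertain too. The 3 alpha members summed to 235 and 222 CPM per kilobase in the controls and to 141 and 143 after Erastin, a log2 ratio of the means of −0.69. The 6 beta members, among which TUBB hardly counted, summed to 401 and 360 in the controls and to 319 and 301 after Erastin, a log2 ratio of −0.30. The libraries of the 2 groups did not overlap in either sum. The ratio of beta to alpha was 1.70 and 1.62 in the controls and 2.26 and 2.11 after Erastin. An exact two-sided permutation test gave p = 0.333 for both sums and for the ratio, the smallest value that 2 against 2 libraries allow. Merged into 1 row of the edgeR fit, the alpha members had a log2 fold change of −0.64 (SE 0.0628, adjusted p = 5.90e-06) and the beta members one of −0.30 (SE 0.0694, adjusted p = 0.00379). With TUBBP1 added, the beta row gave −0.39 (adjusted p = 4.67e-04 by edgeR). Per kilobase of unshared bases, the ratio of beta to alpha was 1.31 and 1.26 in the controls and 1.75 and 1.63 after Erastin.

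Within the 3 alpha members the share of TUBA1C was higher after Erastin, although its own level did not rise (means of 225 and 208 CPM). TUBA1C made up 20.4% and 22.0% of the alpha members per kilobase in the controls and 32.7% and 30.4% after Erastin, a difference of 10.4 points. TUBA4A is not in these shares, with means of 57.5 CPM per kilobase in the controls and 47.8 after Erastin. With TUBA4A included, the TUBA1C shares and their difference would be smaller, and such shares were not computed. TUBA1A went from 24.8% and 25.98% to 19.4% and 20.2%, and TUBA1B from 54.8% and 52.0% to 47.9% and 49.4%. The groups did not overlap for any of the 3, and each exact two-sided permutation p was 0.333, the smallest possible. Within the beta pool TUBB4B held 76.6% and 75.5% in the controls and 74.0% and 73.3% after Erastin, while TUBB2A held 3.46% and 3.49% and then 5.93% and 5.80%. TUBB6 held 19.7% and 20.7% in the controls and 19.8% and 20.6% after Erastin, with full overlap. TUBB held under 1% of the beta pool by these counts, and its level is uncertain as given above. The shares of the other beta members are therefore uncertain too. With exon bases that other genes share left out of the lengths, the share of TUBA1C was 19.1% and 20.7% in the controls and 30.8% and 28.6% after Erastin.

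**Figure D4:**
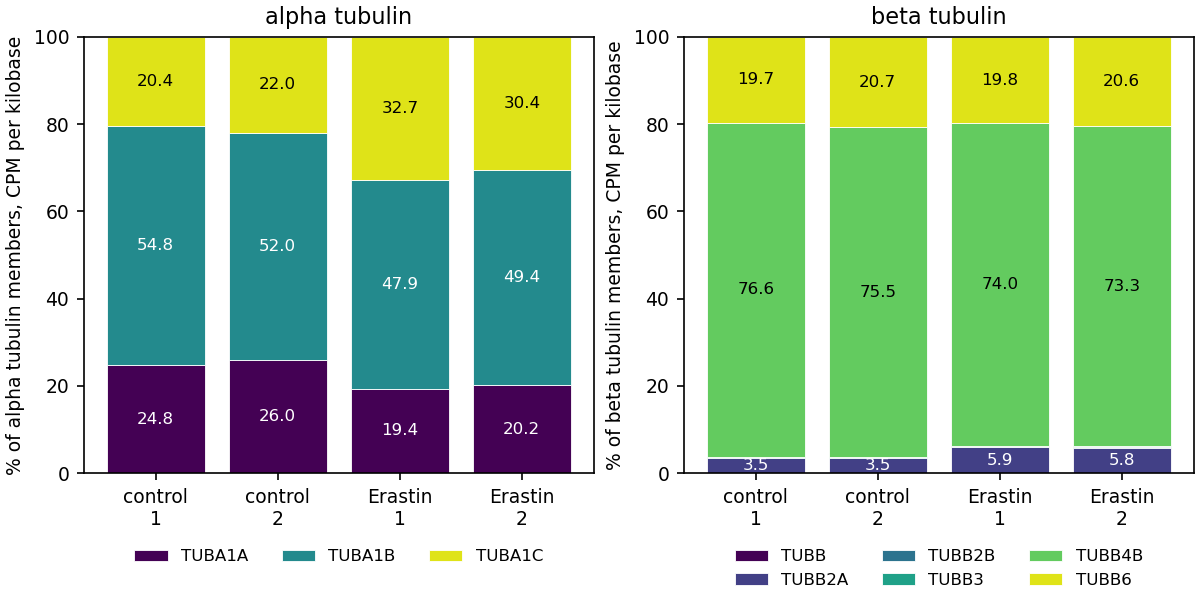
Stacked bars give the percent of each isotype in the alpha members (left) and the beta members (right) in each library, from CPM per kilobase of exon. TUBA1C takes 20.4% and 22.0% of the alpha members in the controls and 32.7% and 30.4% after Erastin, with TUBA4A not included.

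The relatives of the members were read from the same fit. Of the other 10 alpha and beta tubulin genes, 3 had enough counts to be tested. TUBA4A, an alpha isotype, had 231 and 238 CPM in the controls and 197 and 193 CPM after Erastin and fell (log2 fold change −0.27, adjusted p = 0.00473 by edgeR). TUBA3D, with 30 and 15 counts in the controls and 8 and 5 after Erastin, did not pass (adjusted p = 0.0609 by edgeR), and neither did TUBB1, the platelet isotype, with 46, 18, 34 and 36 counts (adjusted p = 0.857 by edgeR). TUBA3C, TUBA3E, TUBA4B, TUBA8 and TUBAL3 had 0 to 12 counts per library, and TUBB4A and TUBB8 had none. Among the 4 gamma, delta and epsilon tubulins, of which gamma tubulin nucleates microtubules and the others belong to centrioles, TUBG1, TUBG2 and TUBD1 fell (3 of 4, against 23.7% of all tested genes) and TUBE1 rose (1 of 4, against 23.2%). Their log2 fold changes were −0.61, −0.61, −0.66 and 0.29, with adjusted p = 8.69e-05, 0.00119, 0.0203 and 0.0277 by edgeR. In the stathmin family STMN3 fell from 65 and 43 to 17 and 13 counts (log2 fold change −1.83, SE 0.473, adjusted p = 0.00739 by edgeR). STMN4 had 13 and 8 counts in the controls and 20 and 4 after Erastin, and STMN2 had at most 2 counts in a library.

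Genes that fold tubulin moved in both directions. Of the 13 tested subunits of the chaperonin CCT and of prefoldin, which fold newly made tubulin, 8 fell and 2 rose (median log2 fold change −0.22), against 23.7% of all tested genes that fell and 23.2% that rose. The 2 rises were of prefoldin subunits. Every CCT subunit fell except CCT7, whose log2 fold change of 0.13 did not pass (adjusted p = 0.134 by edgeR). This split of the list was made after the values were seen. Of the 6 tested folding cofactors, which assemble the heterodimer, 2 fell and 3 rose (median 0.27). TTC5 had 13.2 and 11.9 CPM in the controls and 12.2 and 11.97 CPM after Erastin, and its log2 fold change of −0.05 did not pass the test (adjusted p = 0.786 by edgeR). It was chosen for its role, after its values were seen. Of the 3 genes of tubulin mRNA autoregulation 1 fell, a share near that of all tested genes for so short a list. The gene was SCAPER, named after its values were seen. It had 15.1 and 13.6 CPM in the controls and 9.09 and 11.3 CPM after Erastin (log2 fold change −0.50, adjusted p = 0.0205 by edgeR).

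Among genes that act on microtubules, the list of end and lattice proteins held more rises than falls, with 9 of 21 tested genes higher, against 23.2% of all tested genes, and 3 lower, against 23.7% (median log2 fold change 0.14). MAP7, which recruits kinesin, rose from 41 and 39 to 119 and 135 counts (log2 fold change 1.67, SE 0.288, adjusted p = 5.23e-04 by edgeR). Of 7 severing genes 1 fell, FIGN, which encodes the ATPase fidgetin, from 25.6 and 29.1 to 8.83 and 11.0 CPM (−1.47, adjusted p = 5.14e-06 by edgeR). Of 16 tested tubulin modifying enzymes 3 fell and 2 rose, both below the shares of all tested genes, and of 9 genes of the gamma tubulin ring complex 4 fell. In the other cytoskeletal systems, 7 of 10 actin and intermediate filament genes fell and 1 rose (median −0.49). NES, the intermediate filament protein nestin, went from 41.8 and 31.3 to 3.51 and 2.45 CPM (−3.62, adjusted p = 3.97e-08 by edgeR), and ACTA2, smooth muscle actin, rose from 12.6 and 13.7 to 31.1 and 30.3 CPM (1.23, adjusted p = 4.17e-06 by edgeR).

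**Figure D5:**
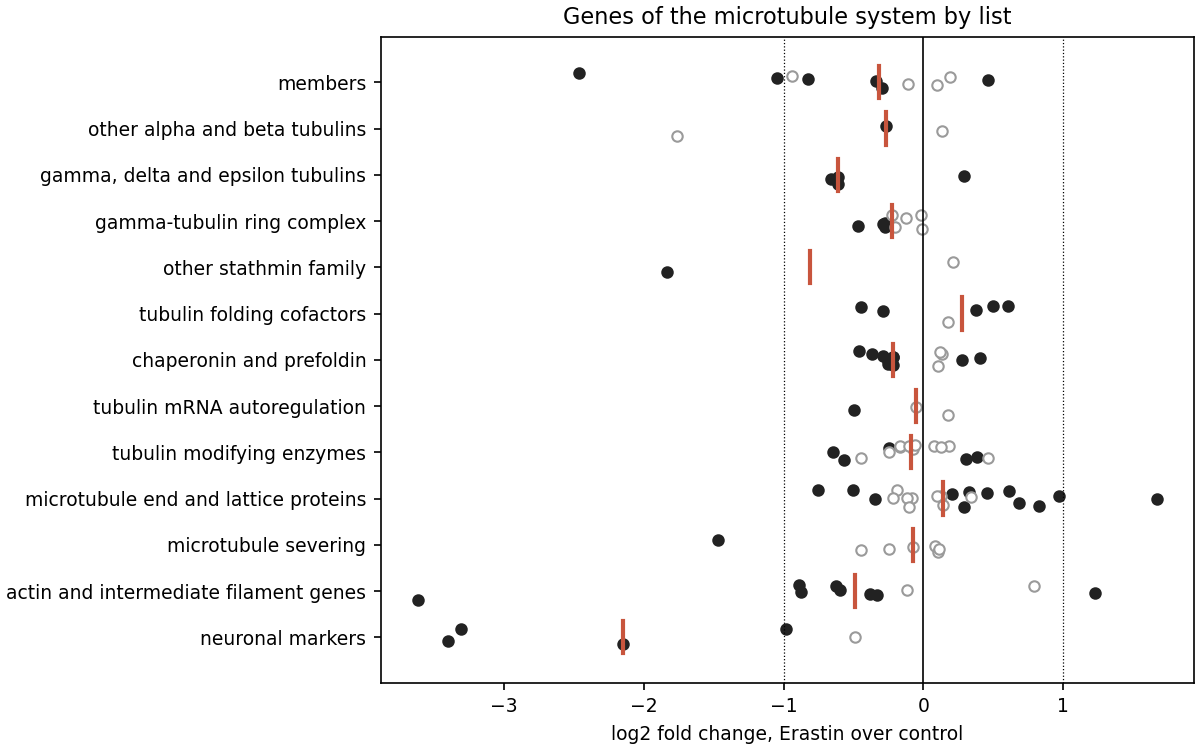
Points are log2 fold changes (x axis, Erastin over control) of the tested genes of each list, filled for an adjusted p under 0.05, with a red line at the median of the list and dotted lines at −1 and 1. The members have a median of −0.32 and the end and lattice proteins one of 0.14, beside −0.0026 over all tested genes.

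Promoters are shown for STMN1, the member with the largest fall, TUBB2A, the member that rose, TUBB4B, the most abundant, and the neighbours TUBA1A, TUBA1B and TUBA1C, which share most of their coding sequence but had different fold changes. Each window runs from 250 bases before to 50 bases after the RefSeq start (GRCh38.p14), on the strand of the gene. Capitals mark matches on either strand to CCAAT, to TTTGAA (the cell cycle homology element, CHR), to an E2F word (TTTGGCGC, TTTCGCGC or TTTCCCGC) or to TATAAA.
STMN1, chr1:25906370-25906669, minus strand: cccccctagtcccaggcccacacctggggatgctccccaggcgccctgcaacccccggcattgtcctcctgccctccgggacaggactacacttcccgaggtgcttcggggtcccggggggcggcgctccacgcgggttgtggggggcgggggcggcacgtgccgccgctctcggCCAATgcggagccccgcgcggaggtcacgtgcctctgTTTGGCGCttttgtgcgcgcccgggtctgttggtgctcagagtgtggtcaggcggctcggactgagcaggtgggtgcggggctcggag
TUBA1A, chr12:49189031-49189330, minus strand: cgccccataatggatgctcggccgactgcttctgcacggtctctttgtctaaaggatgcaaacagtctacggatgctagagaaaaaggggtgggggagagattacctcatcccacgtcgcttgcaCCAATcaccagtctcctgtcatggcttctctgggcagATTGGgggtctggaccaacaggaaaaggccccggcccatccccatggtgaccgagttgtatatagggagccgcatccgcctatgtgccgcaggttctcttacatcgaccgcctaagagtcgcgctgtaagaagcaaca
TUBA1B, chr12:49131346-49131645, minus strand: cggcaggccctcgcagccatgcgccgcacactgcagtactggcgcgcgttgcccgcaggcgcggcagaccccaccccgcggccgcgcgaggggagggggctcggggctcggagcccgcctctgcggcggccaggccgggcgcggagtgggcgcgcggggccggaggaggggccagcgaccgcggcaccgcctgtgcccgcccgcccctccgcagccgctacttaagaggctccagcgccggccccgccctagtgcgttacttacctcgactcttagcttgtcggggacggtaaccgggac
TUBA1C, chr12:49264832-49265131, plus strand: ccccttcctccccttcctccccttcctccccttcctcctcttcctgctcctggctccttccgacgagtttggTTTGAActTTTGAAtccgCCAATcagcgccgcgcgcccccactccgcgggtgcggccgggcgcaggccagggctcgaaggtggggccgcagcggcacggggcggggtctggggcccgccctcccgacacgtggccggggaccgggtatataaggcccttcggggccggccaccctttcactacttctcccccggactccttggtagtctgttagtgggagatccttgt
TUBB2A, chr6:3157495-3157794, minus strand: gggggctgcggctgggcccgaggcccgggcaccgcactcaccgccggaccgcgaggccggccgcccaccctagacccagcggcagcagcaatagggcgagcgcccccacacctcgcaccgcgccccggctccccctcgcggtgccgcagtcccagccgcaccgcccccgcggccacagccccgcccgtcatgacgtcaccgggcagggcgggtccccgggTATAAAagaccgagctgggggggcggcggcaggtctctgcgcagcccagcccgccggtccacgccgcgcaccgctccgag
TUBB4B, chr9:137241037-137241336, plus strand: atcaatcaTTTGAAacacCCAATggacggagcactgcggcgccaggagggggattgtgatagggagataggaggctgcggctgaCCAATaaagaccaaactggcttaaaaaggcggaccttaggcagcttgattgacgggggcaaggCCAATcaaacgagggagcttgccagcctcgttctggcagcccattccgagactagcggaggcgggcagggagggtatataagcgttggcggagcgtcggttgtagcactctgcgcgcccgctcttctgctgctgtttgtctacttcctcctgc

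The alpha promoters differed in these words although the coding sequences hardly did. TUBA1A held 2 CCAAT matches, whose first bases lay at −125 and −88 from the start, TUBA1B held none of the capitalised words, and TUBA1C held 1 CCAAT match at −160 and 2 TTTGAA matches at −178 and −170. STMN1 held 1 CCAAT match at −75 and 1 E2F word at −38, and TUBB2A held 1 TATAAA match at −30. TUBB4B held 3 CCAAT matches at −232, −166 and −103 and 1 TTTGAA match at −242. Of 35116 RefSeq promoter windows of the same length, 34.6% held CCAAT, 15.2% TTTGAA, 2.74% an E2F word and 11.5% TATAAA. The GC box, GGGCGG, was also sought but not capitalised, and 44.95% of windows held it. It had 3 matches in TUBA1B, 2 in TUBA1C, 5 in TUBB2A, 3 in STMN1 and 0 in TUBA1A and TUBB4B. Variants of TATAAA were not sought. The matches describe the letters only, and no binding was measured for them here.

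Over the 4 libraries, the genes with the pattern most like that of STMN1 (smallest Euclidean distance between centred log2 CPM values, among 9501 genes averaging 10 CPM or more) were DDX12P (distance 0.0510, log2 fold change −2.66), METTL7A (0.0753, −2.59) and PALMD (0.0773, −2.54). For TUBB4B, the tubulin with the highest level per kilobase, they were SMPD4BP (0.0288, −0.34), TBC1D22A (0.0289, −0.34) and ABCA2 (0.0295, −0.35). With 4 libraries in 2 groups, likeness of this kind follows mainly from a similar fold change.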

How the data were processed

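The authors made 4 RNA-seq libraries from total RNA of U87MG cells, 2 control and 2 Erastin. The authors deposited raw counts of single reads per gene, which per the file headers were made by featureCounts 2.0.3 (2.0.4 per the labels) with Ensembl release 90 on GRCh38, without strand and without reads that matched several places; the processing notes of the submitters name HISAT2 2.1.0 and DESeq2 1.18.1. The deposited values of 1 library were also tested for the decimals of estimated counts, and rounding changed no value.

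Groups came from the labels. The model was fitted with edgeR 4.0.16 under R 4.3.3 on the 16751 genes that filterByExpr (minimum count 10) retained, TMM scaled the libraries (factors 0.971 to 1.02), and the quasi-likelihood test was two-sided with Benjamini-Hochberg adjustment over all genes tested. Thresholds were a log2 fold change of 1 in size and an adjusted p under 0.05. CPM values were scaled by TMM, and levels per kilobase used the exon length of the deposited table. Members and lists were chosen with earlier results of these data known. Named genes were all members, the other tubulins and stathmins with any count, up to 2 rises and 2 falls past both thresholds per list, and the 3 genes most like STMN1 and TUBB4B; marker genes, genes that overlap a member and tubulins without counts are also named, all after their values were seen, and any other gene is said to have been chosen later. TBCE was not found by its symbol. On simulated counts with 200 changed genes, 197 were recovered with 3 false calls.

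The alternatives comprised library totals, RLE size factors, DESeq2 1.42.0, no filter, at least 10 counts in every library, a replicate block, glmTreat, thinned counts, merged paralogs, raw count shares, all annotated tubulins and each library left out in turn. Counting pairs of reads and merging the beta tubulins, with and without TUBBP1, were added after seeing the data, as were lengths without exon bases shared by other genes. PCR reads are not independent molecules, and neither are the reads of a pair, so intervals cover counting error at most. Promoters were RefSeq windows and coding sequences those of GENCODE release 44. Figures were drawn with matplotlib 3.10.9.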

Additional observations from a re-analysis of the deposited data

How the results depend on the processing

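The direction of STMN1, TUBA1A, TUBA1B, TUBA1C, TUBB4B, TUBB6, TUBB and TUBB2A was the same under every alternative in which they were tested; TUBB was not tested where every library needed 10 counts or where pairs of reads were counted. With library totals, which moved the median of all genes to 0.0471, 1 member was called lower, since TUBA1A reached −0.996. With glmTreat, which tests against the threshold itself, 748 genes were called lower and 377 higher, 1 member was called lower (STMN1, also the 1 member lower by adjusted p) and 0 were higher by adjusted p. With all annotated alpha and beta tubulins in place of the members, the summed alpha log2 ratio was −0.59. With shared exon bases left out of the lengths, the TUBA1A share differed by −4.57 points, against −5.60. Raw count shares gave TUBB6 a difference of 0.0679 points of the beta pool, against −0.0327 per kilobase. Leaving out each library in turn, where the lone library is assumed to vary like the others, moved that difference between −0.545 and 0.480 points, the TUBB3 share difference between −0.00751 and 0.0888 points, and the log2 fold changes of TUBB2B between −0.18 and 0.48 and of TUBB3 between −0.34 and 0.42. STMN1 stayed between −2.51 and −2.43, and TUBA1C lay between −0.159 and −0.0673, beside −0.0624 with library totals. The numbers of the replicates are not said to mark a shared culture or day, and deviations of same-numbered libraries correlated at 0.0581 over 9508 genes. With the replicate number as a replicate block, 1568 genes were called lower and 1039 higher, 2 members were called lower, and no member's call changed. The low counts of TUBB, TUBB2B and TUBB3 limit what can be said of them.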
